A study of Mus musculus with 4 samples.

Results

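G1 cyclins and their kinases drive a cell from rest towards DNA replication. D cyclins bind CDK4 and CDK6, E cyclins bind CDK2, and both kinds of complex phosphorylate the retinoblastoma protein RB1, which otherwise holds E2F transcription factors such as E2F1 in check. Muscle satellite cells rest outside the cycle, enter G1 when muscle is injured, divide as myoblasts, and leave the cycle for good when they begin to differentiate. In muscle, cyclin D3 and RB1 are also known for their part in that exit. The genes described are the 10 members of this core, named by a fixed list and not by their values: Ccnd1, Ccnd2 and Ccnd3 (D cyclins), Cdk4 and Cdk6 (their kinases), Ccne1 and Ccne2 (E cyclins), Cdk2 (the E cyclin kinase), E2f1 and Rb1. All 10 were among the 27998 genes of the count tables.

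RNA was counted in single cells from 4 libraries, 1 for each mouse strain, each made from the lower hindlimbs of 2 mice pooled before sorting. The strains were B10 (C57/Bl10ScsSn, 15 weeks old), mdx (C57BL/10ScSn-Dmdmdx, 11 weeks), DBA (DBA/2, 13 weeks) and D2-mdx (D2.B10-Dmdmdx, 14 weeks). Both mdx strains carry the Dmdmdx allele of dystrophin, in the mild and the severe background respectively, and B10 and DBA are their controls. The labels list no treatment. All cells had been sorted as positive for α7-integrin and VCAM1 and negative for Cd11b, Sca1, Cd45 and Cd31, so cells that had lost these surface proteins were not sampled, and age differed along with genotype, so these cannot be told apart. Dmd, the gene the allele disrupts, is given, as every level below, in CPM, the UMIs of a gene in every 1000000 UMIs of the same cells, a UMI being 1 counted RNA molecule. Pax7-positive cells of the control libraries B10 and DBA held 327 and 293 CPM of it, and those of mdx and D2-mdx 138 and 123 CPM, lower in both libraries labelled with the allele. The satellite cell markers Chodl and Myf5 were used by no gate but were among the markers that named the cell clusters. They stood at 1105 to 1488 CPM and 414 to 474 CPM in Pax7-positive cells of the 4 libraries. Of other markers of these cells, Heyl stood at 338, 210, 311 and 225 CPM in B10, mdx, DBA and D2-mdx. Cdh15 stood at 208, 325, 197 and 336 CPM. Calcr and Spry1 were lower in mdx and D2-mdx than in their controls, and Hey1 was lower in D2-mdx only.

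Cells of the myogenic clusters were placed in 1 of 3 exclusive classes. Dividing cells held at least 1 UMI of Mki67 or Top2a, Myog-positive cells held at least 1 UMI of Myog and neither of those, and Pax7-positive cells held Pax7 and none of the 3. In the order B10, mdx, DBA, D2-mdx there were 4158, 3609, 2548 and 2914 Pax7-positive cells, 203, 463, 88 and 571 dividing cells, and 28, 356, 40 and 422 Myog-positive cells. Summed UMIs ran from 20729071 to 37046806 in Pax7-positive cells, from 1189407 to 7653004 in dividing cells, and from 414177 in Myog-positive cells of B10 to 4458023 in those of D2-mdx. The control libraries were therefore thinly counted outside the Pax7-positive class. Pairs of libraries shared 3 to 8 cell barcodes among the cells kept.

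The classes did not hold equally clean cells in each library. In B10, 174 of 203 dividing cells rested on a single UMI of Mki67 or Top2a, against 327 of 463 in mdx, 60 of 88 in DBA and 304 of 571 in D2-mdx. Birc5, a mitosis gene outside the gate, stood at 20.2 CPM in dividing cells of B10 and at 109, 71.5 and 184 CPM in those of mdx, DBA and D2-mdx. In Pax7-positive cells it stood at 0.135 and 0.320 CPM in B10 and DBA, but at 1.91 and 6.46 CPM in mdx and D2-mdx. Cdk1, Ube2c, Rrm2 and Ccna2, checked with it, were also higher there in the dystrophic library of each pair. For Ccna2 the difference was small in the B10 pair, at 0.351 CPM in B10 and 0.566 CPM in mdx. Tpx2 went the other way in that pair, at 3.21 CPM in B10 and 2.02 CPM in mdx. Actc1, an early sarcomere gene, was at 0 in Myog-positive cells of B10 and 3.21 CPM in those of DBA, but at 1022 CPM in mdx and 335 CPM in D2-mdx. Tnnt2, Gm7325 and Myh3 were likewise at 4.83 CPM or less in Myog-positive cells of B10 and DBA. Tmem8c, checked with them, stood at 77.3 and 41.8 CPM there and at 303 and 164 CPM in mdx and D2-mdx. In Pax7-positive cells of B10 and DBA, Tmem8c stood at 0 and 0.249 CPM. A Pax7 UMI was also held by 26 of 28, 204 of 356, 34 of 40 and 290 of 422 Myog-positive cells of B10, mdx, DBA and D2-mdx. Myog was detected in 1.03%, 2.94%, 0.619% and 5.79% of pericytes of B10, mdx, DBA and D2-mdx, a cell type not known to express it, with a median of 10634, 7984.5, 11082 and 6880.5 UMIs a cell. The 4 erythrocyte markers summed to 4498, 1747, 16.0 and 1210 CPM in dividing cells of B10, mdx, DBA and D2-mdx. In Pax7-positive cells they summed to 24.3, 319, 318 and 871 CPM, and in Myog-positive cells to 26.6, 29.4, 8.03 and 1090 CPM. The parts of free RNA, of erythrocyte RNA and of cycling cells without a gate UMI in the class values were not tested.

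The first question was which G1 genes differed between Pax7-positive, dividing and Myog-positive cells. In dividing cells, 6 of the 10 genes were higher than in Pax7-positive cells, among them both E cyclins and E2f1 by the widest margins, and none was lower. In Myog-positive cells, 6 of the 10 were again higher than in Pax7-positive cells, but here the list held Rb1 and Ccnd3 in place of the E cyclins. Classes were compared over the 4 libraries with edgeR's quasi-likelihood test, with library as a block and p-values adjusted by Benjamini-Hochberg over 11597 genes. Of all genes tested, 11.3% were higher and 8.23% lower in dividing than in Pax7-positive cells. The shares for Myog-positive against Pax7-positive cells were 12.7% higher and 13.2% lower, and those for Myog-positive against dividing cells 4.44% higher and 6.04% lower. Since each library is a different strain, the spread behind these p-values is that of the class differences between strains. Differences in level between libraries are taken up by the block. That spread is not known to be that between mice of 1 strain.

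**Figure D1:**
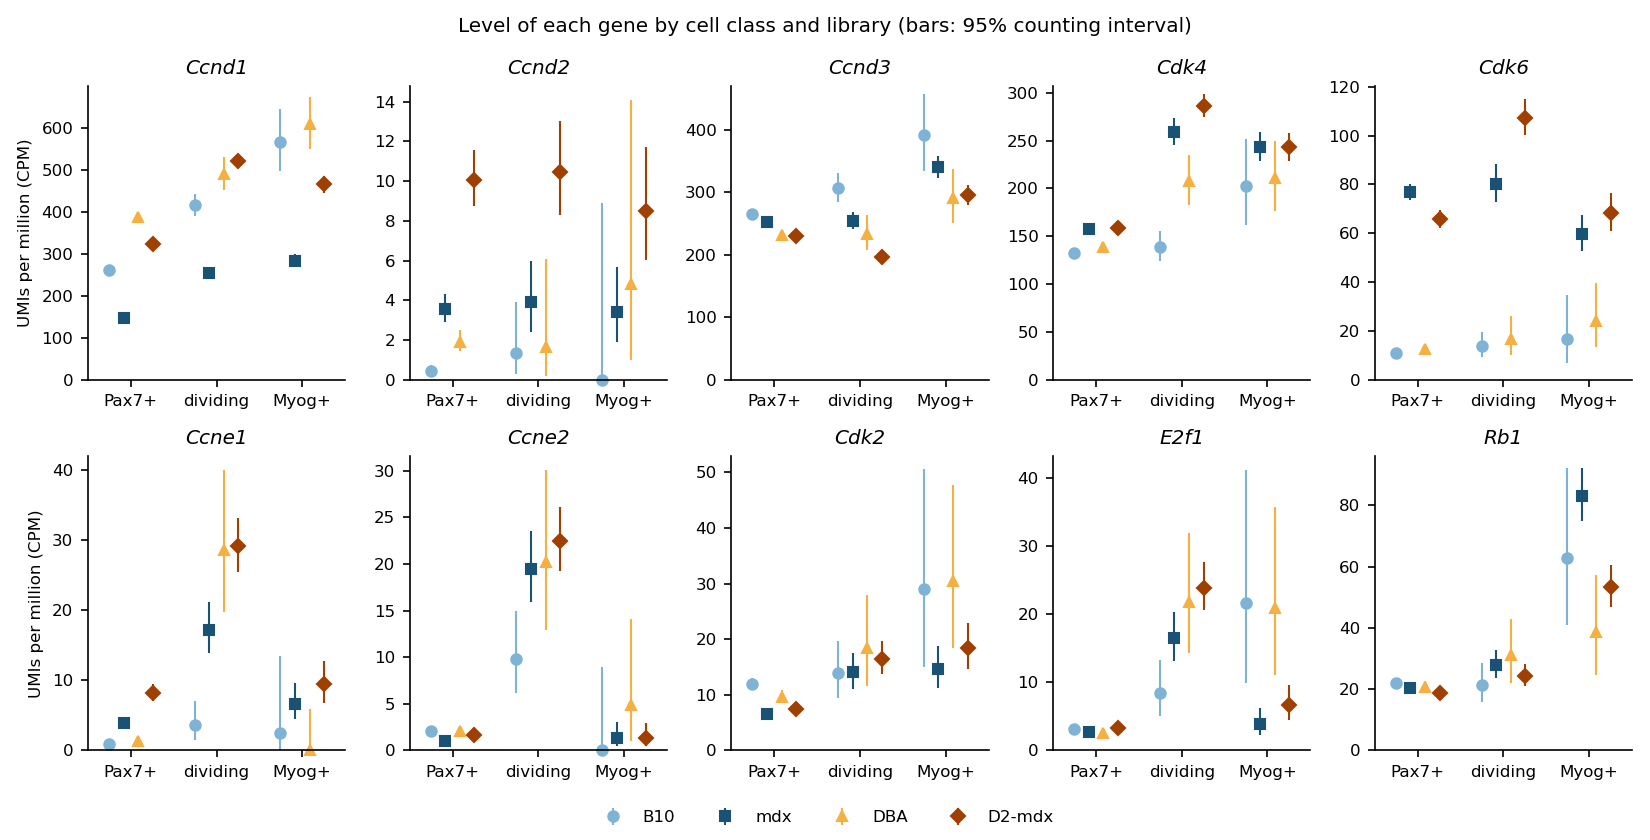
Level of each of the 10 genes in CPM (linear axes from 0) by cell class, 1 point for each library, with 95% counting intervals as bars. Ccne1, Ccne2 and E2f1 are highest in dividing cells of mdx, DBA and D2-mdx, Rb1 is highest in Myog-positive cells of all 4 libraries, and Cdk6 splits the libraries into dystrophic and control in every class.

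Ccnd1, the D cyclin that growth factors induce, was lowest in Pax7-positive cells of every library. It stood there at 261, 148, 388 and 323 CPM in B10, mdx, DBA and D2-mdx. In dividing cells the values were 416, 256, 490.2 and 522 CPM, and in Myog-positive cells 567, 284, 609 and 466 CPM. The mdx library was the lowest of the 4 in each class. Ccnd1 was 1.54-fold higher in dividing than in Pax7-positive cells (log2 fold change 0.62 ± 0.11 SE, edgeR adjusted p = 0.00211), higher in 4 of 4 libraries. It was 1.76-fold higher in Myog-positive cells (0.82 ± 0.11, edgeR adjusted p = 0.000238), also in 4 of 4 libraries. Between Myog-positive and dividing cells the difference of 0.20 ± 0.11 did not pass the test (edgeR adjusted p = 0.315).

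Ccnd3, the D cyclin associated with myoblast exit from the cycle, behaved differently. Its level in Pax7-positive cells was 265, 252, 232 and 229.6 CPM in B10, mdx, DBA and D2-mdx, close to its level in dividing cells of 307, 254, 234 and 197 CPM. Dividing and Pax7-positive cells differed by 0.00 ± 0.09 on the log2 scale (edgeR adjusted p = 0.996). In Myog-positive cells Ccnd3 stood at 391, 340.3, 291 and 295 CPM, above both other classes in 4 of 4 libraries. That was 1.35-fold over Pax7-positive cells (edgeR adjusted p = 0.00401) and 1.35-fold over dividing cells (edgeR adjusted p = 0.0082). Both calls were lost when the mdx library was left out (adjusted p = 0.0685 and 0.128), with log2 fold changes of 0.43 and 0.43, and in cells thinned to 3000 UMIs (adjusted p = 0.0513 and 0.104). In all tests and ratios of thinned cells the gates were applied after thinning, so the classes held other cells. In B10 there were then 73 dividing and 8 Myog-positive cells, and in DBA 41 and 17. Shares of cells with a UMI at 3000 UMIs, given below, kept the classes set from all UMIs. The call against Pax7-positive cells was also lost with cells of 500 genes and more and no upper limit (adjusted p = 0.086).

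Ccnd2 was scarce in all 3 classes. Its highest level was 10.5 CPM, in dividing cells of D2-mdx, and it was at 0 of 414177 UMIs in Myog-positive cells of B10, a count that allows up to 7.24 CPM. No class comparison of Ccnd2 passed the test. Pericytes of the same libraries held 604, 737, 584 and 611 CPM of Ccnd2, which bears on its values in the disease comparison.

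**Figure D2:**
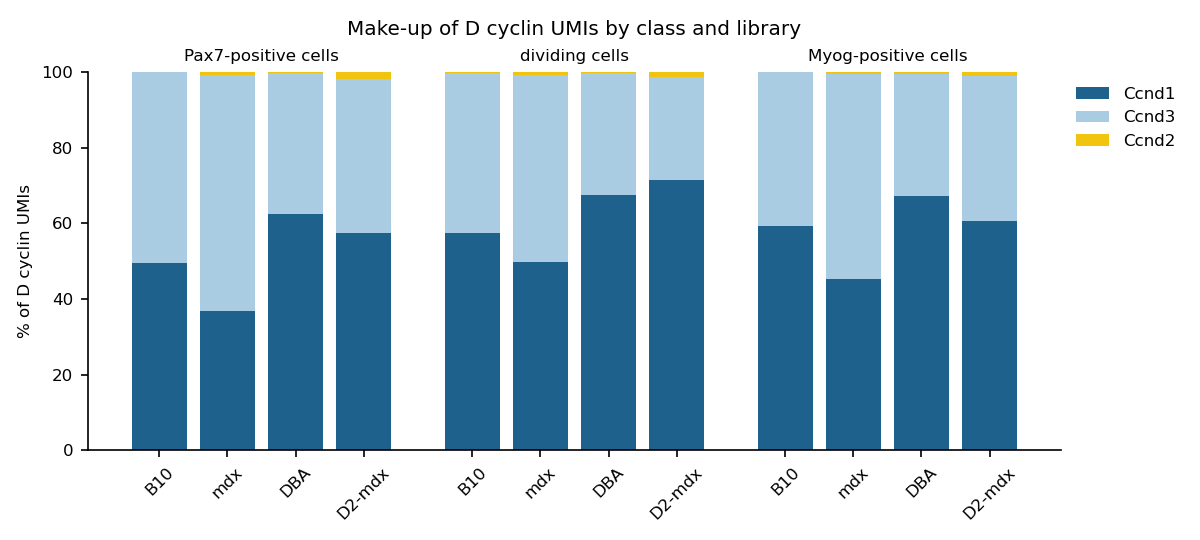
Share of Ccnd1, Ccnd2 and Ccnd3 in all D cyclin UMIs, as stacked percentages, for each class and library. Ccnd1 takes its smallest share in Pax7-positive cells of all 4 libraries, and its smallest share of all, 36.8%, in those of mdx.

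The make-up of the D cyclin UMIs moved with class and with strain. Ccnd1 made up 49.5% of D cyclin UMIs in Pax7-positive cells of B10 (exact binomial 95% interval 48.8% to 50.2%, for counting error only), and 36.8%, 62.4% and 57.4% in mdx, DBA and D2-mdx. In dividing cells its share was 57.4%, 49.8%, 67.6% and 71.5%, and in Myog-positive cells 59.2%, 45.2%, 67.3% and 60.6%. The 2 libraries of the DBA background were thus above both libraries of the B10 background within each class, and Pax7-positive cells were below the other classes within each library. In Myog-positive cells, however, the interval of D2-mdx (58.9% to 62.2%) lies within that of B10 (54.2% to 64.1%, on 397 D cyclin UMIs). After every cell was thinned to 3000 UMIs, 63.2%, 56.7%, 75.4% and 66.1% of Pax7-positive cells of B10, mdx, DBA and D2-mdx held a UMI of any D cyclin. A UMI of both Ccnd1 and Ccnd3 was held by 16.8%, 10.7%, 27.8% and 21.9% of them.

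Cdk4, the D cyclin kinase detected at high level in every class, was higher in dividing and in Myog-positive cells than in Pax7-positive cells. In Pax7-positive cells it stood at 132, 158, 139 and 158 CPM in B10, mdx, DBA and D2-mdx, a narrow range. In dividing cells it stood at 139, 259, 208 and 286 CPM, lowest in B10. With gates of 2 UMIs the dividing cells stood at 180, 318, 250 and 317 CPM, again lowest in B10. In Myog-positive cells the 4 values drew together again at 203, 243, 210.5 and 243 CPM. The differences from Pax7-positive cells were 1.48-fold in dividing cells (edgeR adjusted p = 0.00685) and 1.53-fold in Myog-positive cells (edgeR adjusted p = 0.00341), each higher in 4 of 4 libraries. For dividing cells of B10 the log2 ratio was only 0.07, with a counting interval of -0.10 to 0.24. The call in dividing cells was lost without the mdx library (adjusted p = 0.0796).

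Cdk6, the other D cyclin kinase, differed more between dystrophic and control libraries than between classes. Its level was 11.0, 77.0, 12.6 and 65.8 CPM in Pax7-positive cells of B10, mdx, DBA and D2-mdx, 13.9, 80.3, 16.8 and 107 CPM in dividing cells, and 16.9, 59.9, 24.1 and 68.2 CPM in Myog-positive cells. Every dystrophic value lay above every control value. No class comparison passed the test, the nearest being dividing against Pax7-positive cells at a log2 fold change of 0.41 ± 0.16 (edgeR adjusted p = 0.0793). With cells of 500 genes and more and no upper limit, which adds the most complex cells, that difference was 1.31 (adjusted p = 0.00851). With gates of 2 UMIs Cdk6 was lower in Myog-positive than in dividing cells, at -0.72 (adjusted p = 0.0365) against -0.39 with gates of 1 UMI (adjusted p = 0.223). In cells thinned to 3000 UMIs the difference was -0.88 (edgeR adjusted p = 0.0185). Within mdx and D2-mdx the log2 ratios of Myog-positive over dividing cells were -0.42 and -0.65, with counting intervals below 0. In B10 and DBA they were 0.28 and 0.52, on 7 and 15 Myog-positive UMIs, with intervals that include 0.

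Ccne1 and Ccne2, the cyclins of the G1 to S transition, marked the dividing class. Ccne1 stood at 3.58, 17.2, 28.6 and 29.1 CPM in dividing cells of B10, mdx, DBA and D2-mdx, against 0.972, 3.85, 1.32 and 8.20 CPM in Pax7-positive cells. Ccne2 stood at 9.85, 19.5, 20.2 and 22.5 CPM against 2.11, 1.06, 2.03 and 1.69 CPM. B10 was the lowest dividing library for both. The rise was 5.51-fold for Ccne1 (edgeR adjusted p = 0.000352) and 10.6-fold for Ccne2 (edgeR adjusted p = 2.96e-06), in 4 of 4 libraries each. With gates of 2 UMIs the dividing cells of B10 held 48.3 CPM of Ccne2, then within the 35.3 to 50.5 CPM of the other libraries. For Ccne1 B10 stayed lowest, at 13.4 CPM on 5 UMIs, against 32.3, 67.3 and 36.5 CPM in mdx, DBA and D2-mdx.

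In Myog-positive cells the E cyclins were near the Pax7-positive level. Ccne2 stood at 1.38, 4.82 and 1.35 CPM in mdx, DBA and D2-mdx and was at 0 in B10, and Ccne1 at 2.41, 6.65 and 9.42 CPM in B10, mdx and D2-mdx and at 0 of 622366 UMIs in DBA, which allows up to 4.82 CPM. Against dividing cells both fell, Ccne1 by 1.82 and Ccne2 by 3.52 on the log2 scale (edgeR adjusted p = 0.016 and 0.000147). Neither differed past the threshold from Pax7-positive cells, where the log2 fold changes were 0.64 and -0.11. Where classes could overlap, so that dividing cells with a Myog UMI counted as Myog-positive, Ccne2 was higher by 1.71 (adjusted p = 0.00242). The Ccne1 call against dividing cells was lost without the mdx library (log2 fold change -2.19, adjusted p = 0.0883), in cells thinned to 3000 UMIs (-1.31, adjusted p = 0.104) and where classes could overlap (-1.35, adjusted p = 0.0565).

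Cdk2, the E cyclin kinase, was higher in both other classes than in Pax7-positive cells. Its values in B10, mdx, DBA and D2-mdx were 11.9, 6.58, 9.65 and 7.48 CPM in Pax7-positive cells, 13.9, 14.0, 18.5 and 16.5 CPM in dividing cells, and 29.0, 14.7, 30.5 and 18.4 CPM in Myog-positive cells. Each control Myog-positive value rests on few molecules, 12 UMIs in B10 and 19 in DBA. The rise was 1.86-fold in dividing cells (edgeR adjusted p = 0.00346) and 2.44-fold in Myog-positive cells (edgeR adjusted p = 0.0004), in 4 of 4 libraries. For dividing cells of B10 the log2 ratio was 0.23, with a counting interval of -0.35 to 0.75. The call in dividing cells was lost without the mdx library (adjusted p = 0.0566) and in cells thinned to 3000 UMIs (adjusted p = 0.0812).

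Upstream sequences are shown for 3 genes that were higher in dividing cells and have a start window in the RefSeq table used (GRCm38.p6): Cdk4, Cdk2 and Ccne1. The table matched 6 of the 10 genes. E2f1 was also higher in dividing cells and has a window, but is not shown because none of its 250 upstream bases was free of annotated exons. Each line runs 5′ to 3′ on the strand of the gene and is the longest stretch free of annotated exons within the 250 bases upstream of the start. Capitals mark CACGTG or CAGCTG, the E-box letters bound by MYC-type and by MYOD-type factors.
Cdk4, chr10:127063285-127063533, plus strand: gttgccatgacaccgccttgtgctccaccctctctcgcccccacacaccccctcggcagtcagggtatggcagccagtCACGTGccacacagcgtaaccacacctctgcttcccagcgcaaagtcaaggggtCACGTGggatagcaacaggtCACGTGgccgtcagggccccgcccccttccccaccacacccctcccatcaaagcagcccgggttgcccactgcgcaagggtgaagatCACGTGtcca
Cdk2, chr10:128705052-128705179, minus strand: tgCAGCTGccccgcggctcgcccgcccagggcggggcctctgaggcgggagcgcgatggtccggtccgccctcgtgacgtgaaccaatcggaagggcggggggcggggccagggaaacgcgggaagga
Ccne1, chr7:38107535-38107740, minus strand: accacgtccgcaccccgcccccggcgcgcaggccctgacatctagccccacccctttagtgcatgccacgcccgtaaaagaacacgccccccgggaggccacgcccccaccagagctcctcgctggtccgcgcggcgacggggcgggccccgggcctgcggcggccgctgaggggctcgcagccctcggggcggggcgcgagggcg

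The Cdk4 stretch held CACGTG 4 times, and the 250 bases upstream of Cdk6 held it once. At least 1 match stood in the 250 bases upstream of 6.02% of the 32851 windows in the table, and 4 or more in 7 windows. CAGCTG, present once upstream of Cdk2, stood in 13.0% of windows. The E2F letters TTTCCCGC, TTTGGCGC, TTTGCCGC and TTTCGCGC, searched on both strands and found in 1.86% of windows, matched once in the 250 bases upstream of Cdk2, outside the stretch shown. They matched nowhere in the windows of Ccnd3, Cdk4, Cdk6, Ccne1 and E2f1. TGANTCA, the AP-1 letters, matched in none of these windows against 6.75% of all. These are matches of letters in short windows and say nothing about binding.

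E2f1, the transcription factor released from RB1, was low in Pax7-positive cells of all libraries, at 3.21, 2.72, 2.53 and 3.23 CPM in B10, mdx, DBA and D2-mdx. In dividing cells it stood at 8.51, 16.5, 21.9 and 23.9 CPM. The rise was 6.09-fold (edgeR adjusted p = 0.00019), in 4 of 4 libraries. In Myog-positive cells the libraries parted. The controls B10 and DBA stood at 21.7 and 20.9 CPM, and mdx and D2-mdx at 3.90 and 6.73 CPM. The control values come from 9 UMIs in 5 of 28 cells and 13 UMIs in 9 of 40 cells. The Myog-positive rise over Pax7-positive cells, 2.80-fold (edgeR adjusted p = 0.0272), was lost without the DBA library (log2 fold change 1.08, adjusted p = 0.125) and over all cell types (1.35, adjusted p = 0.0581). Against dividing cells the difference was -1.12 ± 0.43 (edgeR adjusted p = 0.122), and with gates of 2 UMIs it was -1.91 (adjusted p = 0.00418).

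Rb1, whose product stops the cycle by binding E2F factors, had the largest fold change of the 10 in Myog-positive against Pax7-positive cells. It stood at 22.1, 20.4, 20.8 and 18.7 CPM in Pax7-positive cells of B10, mdx, DBA and D2-mdx and at 21.5, 27.9, 31.1 and 24.3 CPM in dividing cells. In Myog-positive cells it stood at 62.8, 83.1, 38.6 and 53.4 CPM, above all 8 other values. With gates of 2 UMIs that order turned in DBA, where Rb1 stood at 44.6 CPM in Myog-positive and 56.8 CPM in dividing cells, on 18 and 27 UMIs. The difference was 3.04-fold over Pax7-positive cells (log2 fold change 1.61 ± 0.16, edgeR adjusted p = 2.08e-05) and 2.44-fold over dividing cells (1.29 ± 0.17, edgeR adjusted p = 0.000268). Dividing and Pax7-positive cells differed by 0.32 ± 0.16 (edgeR adjusted p = 0.17).

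**Figure D3:**
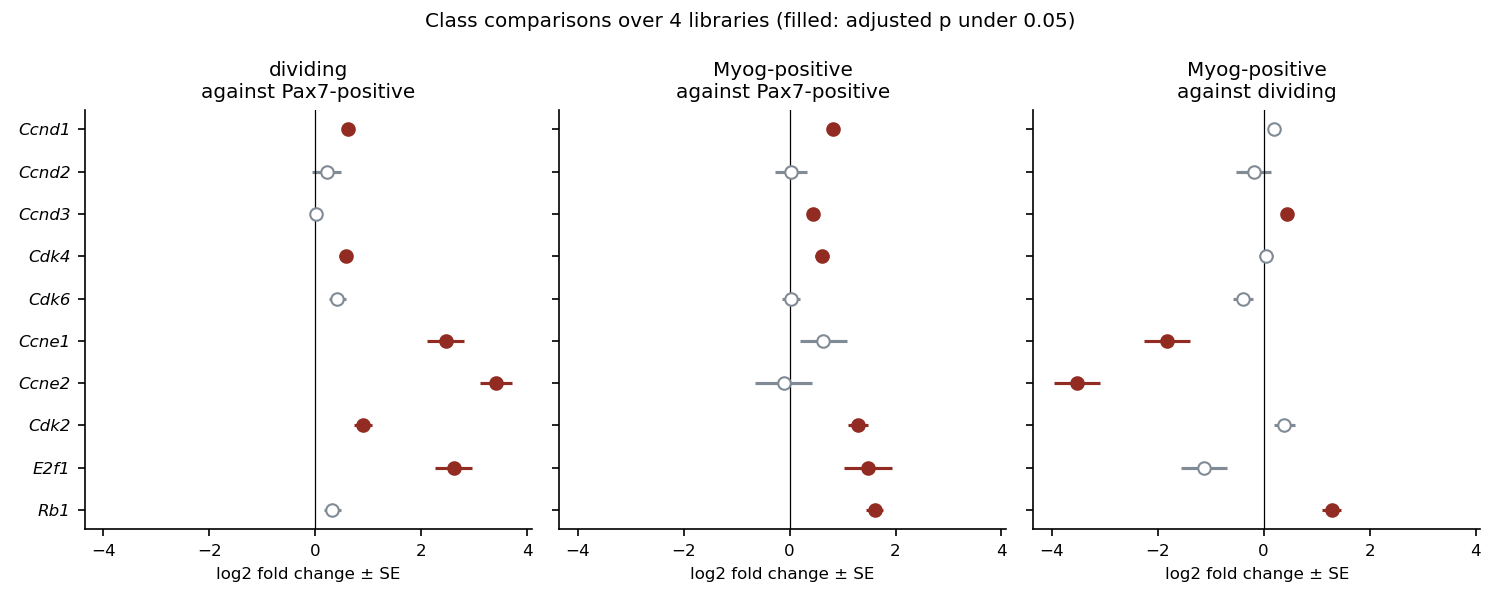
Log2 fold changes with standard errors of the 10 genes in the 3 class comparisons over 4 libraries, filled where the edgeR adjusted p passed 0.05. The E cyclins and E2f1 lead the first panel at 2.46 to 3.41, Rb1 the second at 1.61, and Ccne2 lies at -3.52 in the third.

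The second question was how dystrophic satellite cells differed from those of their own background. With 1 library a strain no test is possible, so each value below is the ratio of 2 libraries with an exact binomial 95% interval that covers counting error alone, and a gene counts as past 2-fold only where 1 library of the pair reached 10 CPM. In Pax7-positive cells, Cdk6 was past 2-fold higher in mdx over B10 and in D2-mdx over DBA, and Ccnd2 in D2-mdx over DBA. Ccnd2 met the CPM rule only through D2-mdx, the library where it was high, at 10.1 CPM. None of the 10 genes was past 2-fold lower in either. Of all genes at 10 CPM or more, 4.11% were past 2-fold higher and 4.57% lower in mdx over B10, and 4.25% higher and 4.37% lower in D2-mdx over DBA. Only 6 of the 10 genes reached 10 CPM in each pair.

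Cdk6 was 6.99-fold higher in mdx than in B10 (log2 ratio 2.81, interval 2.65 to 2.96) and 5.22-fold higher in D2-mdx than in DBA (2.38, 2.21 to 2.56). A UMI of Cdk6 was found in 6.83% of Pax7-positive cells of B10 and 34.0% of mdx, and in 10.1% of DBA and 31.3% of D2-mdx. Median depth in these cells was 8345.5, 6560, 10236.5 and 6013 UMIs, so the shallower libraries had the larger shares. At 3000 UMIs a cell the shares were 2.72%, 17.1%, 3.57% and 16.5% in B10, mdx, DBA and D2-mdx. In dividing cells Cdk6 was 5.78-fold and 6.38-fold higher, and in Myog-positive cells 3.54-fold and 2.83-fold, all with intervals above 1. In dividing cells of D2-mdx over DBA the log2 ratio, 2.67, was 0.55 with cells of 500 genes and more and no upper limit and 3.56 in cells thinned to 3000 UMIs, and that of mdx over B10, 2.53, was 1.69 in thinned cells. In Pax7-positive cells the ratios stayed within their counting intervals under each alternative run.

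Other cells sorted into the same libraries gave smaller Cdk6 ratios. A Cdk6 UMI was found in 12.4%, 16.5%, 7.42% and 8.54% of pericytes of B10, mdx, DBA and D2-mdx. In pericytes Cdk6 stood at 20.1 CPM in B10 and 24.3 in mdx (log2 ratio 0.28, interval -0.40 to 1.02), and at 8.67 CPM in DBA and 12.2 in D2-mdx (0.50, -0.02 to 1.03). In non-myelinating glia it stood at 48.2, 51.0, 40.9 and 62.5 CPM in B10, mdx, DBA and D2-mdx, with intervals that include 0 in both pairs. The glial values of B10 and DBA rest on 23 and 30 cells.

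Ccnd1 was lower in both dystrophic libraries, by 0.81 on the log2 scale in mdx (interval -0.87 to -0.76) and by 0.26 in D2-mdx (-0.31 to -0.22). The ratio was also below 0 in Myog-positive cells, with intervals of -1.20 to -0.79 and -0.55 to -0.23. In dividing cells it was -0.70 in mdx over B10 but 0.09 in D2-mdx over DBA, with an interval of -0.03 to 0.22, and across alternatives it ran from -0.73 to 0.02 and from -0.21 to 0.33. In pericytes of the same libraries Ccnd1 went the other way, with log2 ratios of 1.23 (0.66 to 1.85) and 0.73 (0.48 to 0.98). Between backgrounds, Ccnd1 was 1.49-fold higher in DBA than in B10 and 2.18-fold higher in D2-mdx than in mdx in Pax7-positive cells.

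Ccnd3 and Rb1 hardly differed between dystrophic and control Pax7-positive cells, with log2 ratios of -0.08 and -0.01 for Ccnd3 and -0.12 and -0.15 for Rb1. The second Ccnd3 ratio was 0.03 with TMM library sizes, so it has no stable sign. Cdk4 was 1.19-fold and 1.14-fold higher in mdx and D2-mdx. In dividing cells Cdk4 was 1.86-fold and 1.38-fold higher, and the B10 cells of the first ratio were those with the least Birc5. Median log2 ratios over all genes at 10 CPM in Pax7-positive cells were -0.04 and -0.07, and TMM library sizes raised every ratio by 0.04 and 0.05 there. In dividing cells of D2-mdx over DBA they raised every ratio by 0.24, and in Myog-positive cells by 0.18 in mdx over B10 and 0.14 in D2-mdx over DBA, with no change of sign for Cdk6 or Cdk4.

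Ccnd2 stood at 0.459, 3.57, 1.92 and 10.1 CPM in Pax7-positive cells of B10, mdx, DBA and D2-mdx, on 17, 101, 54 and 209 UMIs, with ratios of 7.78-fold and 5.24-fold. Across alternatives the log2 ratios of these cells ran from 1.95 to 3.22 in mdx over B10 and from 1.04 to 2.73 in D2-mdx over DBA. Summed over 6 pericyte markers, none of them at 0, the same cells held 22.3, 34.8, 34.9 and 63.1 CPM, highest where Ccnd2 was highest. For every 100 UMIs of these markers, Pax7-positive cells held 2.06, 10.3, 5.50 and 16.0 UMIs of Ccnd2, against 6.67, 7.30, 5.81 and 5.49 in pericytes. In DBA that ratio was close to that of pericytes and in B10 below it, while in mdx and D2-mdx it was above it. White blood cell and endothelial markers were also higher in the dystrophic library of each pair. The 6 white blood cell markers summed to 0.621, 11.0, 3.35 and 37.4 CPM in these cells, 1 of them at 0 in B10, and the 6 endothelial markers, none at 0, to 2.24, 7.99, 2.53 and 11.1 CPM. Endothelial cells of the 4 libraries held 106 to 473 CPM of Ccnd2 and white blood cells of mdx 40.9 CPM. Non-myelinating glia held 62.7, 161, 120 and 212 CPM of Ccnd2 in B10, mdx, DBA and D2-mdx, on 13 UMIs in B10. Their log2 ratios were 1.36 (0.57 to 2.28) in mdx over B10 and 0.82 (0.38 to 1.29) in D2-mdx over DBA. The 6 markers of these glia summed to 26.6, 26.0, 18.3 and 29.3 CPM in Pax7-positive cells. The part of RNA from pericytes, white blood cells, endothelial cells and glia in the Ccnd2 values was not tested.

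The remaining genes were below 10 CPM in 1 or both libraries of a pair. Ccne1 was 3.97-fold higher in mdx, on 109 UMIs against 36, and 6.22-fold higher in D2-mdx, on 170 against 37. Both log2 intervals lie above 0, but the gene is under the level at which the 2-fold rule is read. Cdk2 was lower in both, by 0.85 (interval -1.11 to -0.60) and 0.37 (-0.66 to -0.08) on the log2 scale, but in cells thinned to 3000 UMIs the second ratio was 0.14. Ccne2 had log2 ratios of -0.99 (-1.65 to -0.36) and -0.27 (-0.92 to 0.37). E2f1 had ratios of -0.24 and 0.35 with intervals that include 0. In Myog-positive cells, E2f1 was lower in both dystrophic libraries, by 2.48 (-3.72 to -1.13) and 1.63 (-2.62 to -0.57), against the few control UMIs given above.

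**Figure D4:**
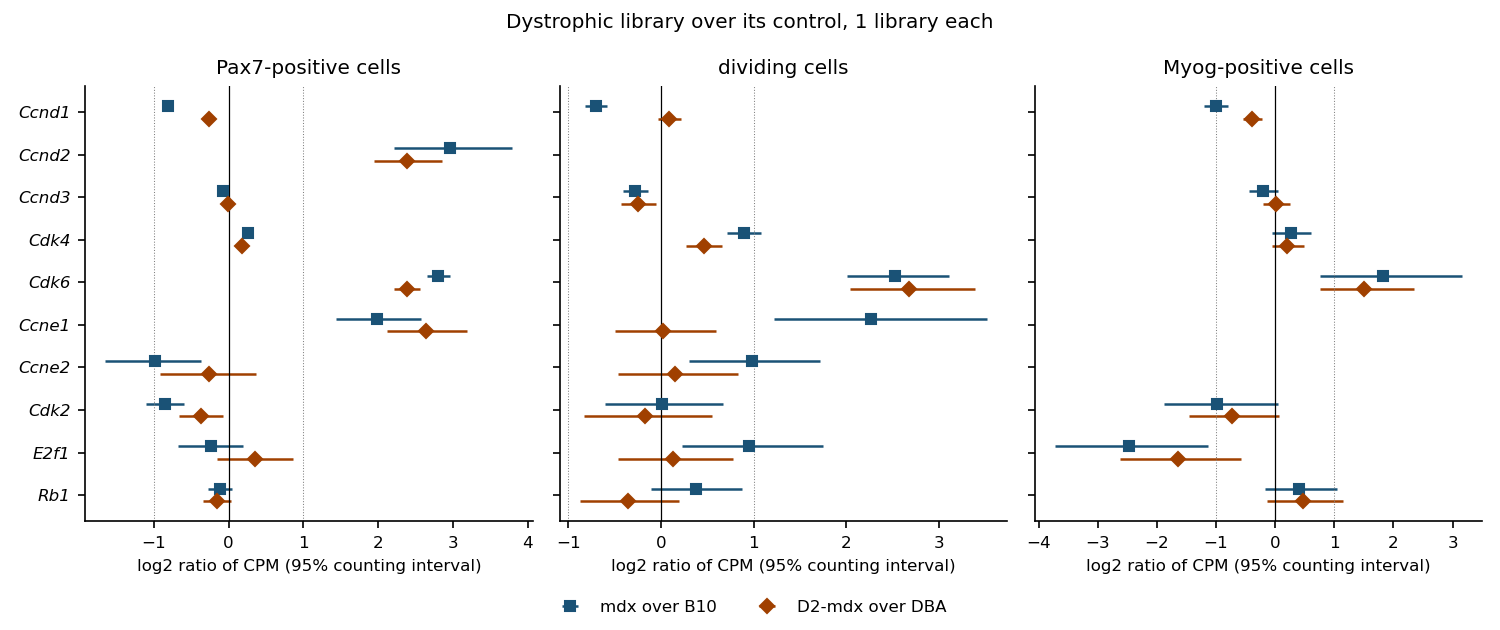
Log2 ratios of CPM of the 10 genes, dystrophic over control library, in each class, with 95% counting intervals and dotted lines at 2-fold. Genes with 3 UMIs or fewer in a library of the pair are not drawn. Cdk6 lies beyond the 2-fold line in all 3 panels for both pairs, and Ccnd1 lies below 0 in all but the D2-mdx pair of dividing cells.

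The next split was of Pax7-positive cells by their immediate-early genes, which rise within minutes of stimulation or tissue dissociation. Pax7-positive cells of each library were split at the median share of UMIs from 11 such genes, which was 3.81%, 3.29%, 3.28% and 4.63% in B10, mdx, DBA and D2-mdx. Ccnd1, Ccnd3 and Cdk4 were lower in the cells with more immediate-early RNA in 4 of 4 libraries. The share of all genes lower in those cells was not computed, so this direction is no result about these genes alone. For Ccnd1 the cells with more and with less stood at 216 and 311 CPM in B10, 96.6 and 186 in mdx, 294 and 479 in DBA, and 215 and 403 in D2-mdx. For Cdk4 they stood at 123 and 143, 112 and 191, 127 and 151, and 118 and 188 CPM.

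The Cdk4 difference was larger in the dystrophic libraries. Its log2 ratios were -0.76 and -0.67 in mdx and D2-mdx and -0.21 and -0.24 in B10 and DBA. The same order held for Ccnd1, at -0.94 and -0.90 against -0.53 and -0.71, and for Ccnd3, at -0.33 and -0.35 against -0.17 and -0.19. The share of all genes with such a gap was not computed, and each strain has 1 library, so the gap is no result about Cdk4 alone. Cdk6 stood at 50.2 and 96.2 CPM in mdx and at 54.4 and 74.1 CPM in D2-mdx in the cells with more and with less. Ccne1 and E2f1 were also lower in the cells with more in 4 of 4 libraries, on 11 to 142 UMIs a side. The Ccne1 interval of DBA includes 0, and for this direction too the share of all genes was not computed. Rb1 was not ordered, with log2 ratios from -0.15 to 0.14 and intervals that include 0 in each library. In the cells with less alone, Ccnd1 stood at 311 CPM in B10 and 186 in mdx, and at 479 in DBA and 403 in D2-mdx, so the order within each pair was that of all Pax7-positive cells. The median depth of the cells with more was 8841, 5929, 10178.5 and 5497 UMIs and that of the cells with less 7736, 7939, 10305 and 6935.

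Dividing cells were split by whether replication genes or G2/M genes, from fixed lists that hold none of the 10, took the larger share relative to their means. The S side held 176, 321, 71 and 335 cells and the G2/M side 8, 110, 14 and 206 cells in B10, mdx, DBA and D2-mdx. The control G2/M sides are too small to read alone. Median depth on the S and G2/M sides was 9734 and 14174 UMIs in mdx and 11064 and 13466 in D2-mdx. Cells that rest on 1 UMI of the gate were not set apart, and their part in these ratios was not tested. In mdx, E2f1 stood at 20.5 CPM on the S side and 9.42 on the G2/M side, and in D2-mdx at 32.9 and 12.8, with log2 ratios of 1.12 (0.30 to 2.03) and 1.37 (0.85 to 1.91). Ccne2 stood at 26.4 and 6.28 CPM in mdx and 29.9 and 13.4 in D2-mdx. In B10 Ccne2 lay the other way, at 6.56 CPM on the S side and 92.0 on the G2/M side (log2 ratio -3.81, -5.15 to -2.40), on 13 and 9 UMIs, and in DBA the ratio was 0.02. In mdx and D2-mdx Ccnd3 was higher on the S side, with log2 ratios of 0.57 and 0.63, and so was Ccnd1, with ratios of 0.28 and 0.22. In B10 and DBA, on the small G2/M sides, Ccnd3 had ratios of 0.77 and 0.57 and Ccnd1 of 1.64 and 0.76, with intervals above 0. Cdk6 had ratios of 0.72 and 0.35 in mdx and D2-mdx, with intervals above 0. In B10 and DBA its ratios were -0.59 and 0.10, with intervals that include 0. Cdk4 had ratios of 0.06 and 0.12 in mdx and D2-mdx, with intervals that reach 0.

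**Figure D5:**
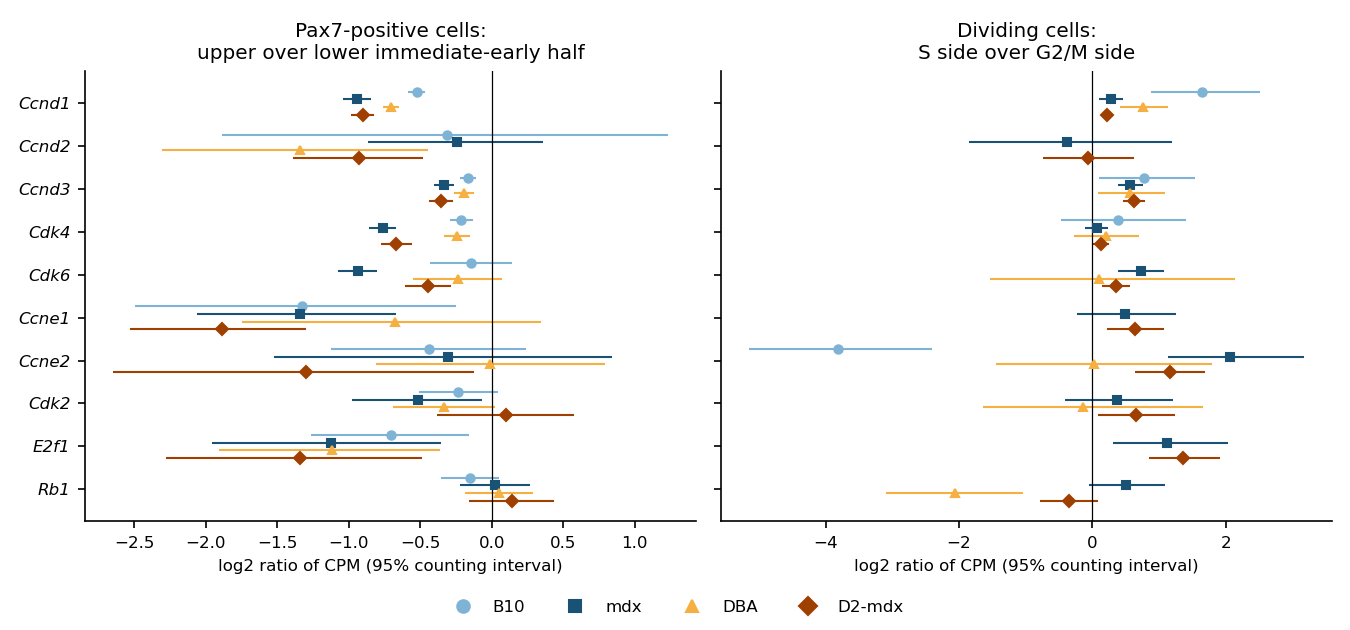
Left, log2 ratio of CPM between Pax7-positive cells with more and with less immediate-early RNA; right, between the S and G2/M sides of dividing cells; 1 point a library with 95% counting intervals, genes with 3 UMIs or fewer on a side left out. Ccnd1 and Cdk4 lie left of 0 in all 4 libraries in the left panel, and E2f1 lies right of 0 in mdx and D2-mdx in the right panel.

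Other regulators of G1 were read from a list of 28 genes, of which 27 were tested between classes. In dividing against Pax7-positive cells 9 were higher and 1 lower, with a median log2 fold change of 0.16, beside -0.04 over all genes and 0.59 over the 10 cyclin, kinase and Rb-E2F genes. The largest were Ccna2, the cyclin that follows cyclin E on CDK2 (5.85), the repressor E2f8 (5.38), the pocket protein Rbl1 (2.34), the CDK subunit Cks1b (1.84) and E2f2 (1.55). In Myog-positive against Pax7-positive cells 7 were higher and 5 lower, with a median of -0.02, beside -0.06 over all genes and 0.63 over the 10. E2f8 (5.22), the CDK inhibitor Cdkn1c (4.82), E2f2 (1.85) and the CDK inhibitor Cdkn1a (1.13) rose, and the CDK4 and CDK6 inhibitor Cdkn2d fell by 0.98. E2f8 was at 0 in Myog-positive cells of B10 and DBA and at 46 UMIs in each dystrophic library. Against dividing cells 3 were higher in Myog-positive cells and 7 lower, led by Ccna2 (-4.79), Cdkn1c (3.85), Rbl1 (-2.43), Cks1b (-1.53) and Cdkn2d (-1.05). All of these are edgeR log2 fold changes with adjusted p from 1.71e-09 to 0.014.

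Of the same list, 22 genes reached 10 CPM in Pax7-positive cells of each pair, and 5 were past 2-fold higher in mdx over B10 and 4 in D2-mdx over DBA. The shares over all genes were 4.11% and 4.25%. None of the 22 was past 2-fold lower, beside 4.57% and 4.37% of all genes. Those past 2-fold higher in both were all CDK inhibitors, Cdkn1a (4.39-fold and 3.86-fold), Cdkn1c (26.6-fold and 9.88-fold), Cdkn2a (65.3-fold and 46.8-fold) and Cdkn2b (9.15-fold and 8.77-fold). Cdkn2a and Cdkn2b reached 10 CPM only in the dystrophic libraries. In B10 and DBA they stood at 1.08 and 2.10 CPM and at 1.48 and 1.57 CPM. The CDK inhibitors Cdkn1b, Cdkn2c and Cdkn2d of the list were not past 2-fold in either pair. The median log2 ratios of the list were -0.06 and -0.09.

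Finally, the 8473 genes at 10 CPM or more in at least 4 of the 12 sums were ranked by how closely they followed each of the 10 over those sums, on the log2(CPM + 1) scale. Sums from 1 library share its RNA and its depth, so these values describe the 12 sums only. Cdk6 was followed most closely by Gng5 (Pearson r = 0.985), Arhgap22 (0.982) and Pak1 (0.982), Cdk4 by Pdap1 (0.985), Eno1 (0.975) and Serbp1 (0.969), and Rb1 by Lsm14a (0.976), Fndc5 (0.973) and Gpt2 (0.973). Ccne1 was followed by Cenpw (0.956), Trim59 (0.933) and Limd2 (0.929), Ccne2 by Ncaph2 (0.965), Prc1 (0.935) and Tacc3 (0.927), and E2f1 by Pole3 (0.958), Chaf1a (0.952) and Cdt1 (0.935). Ccnd1 was followed by Bri3bp (0.930), Mrps28 (0.926) and Wscd1 (0.914), Ccnd3 by Smim7 (0.971), Ddr1 (0.944) and Usf3 (0.919), and Cdk2 by Eef1g (0.962), Dkc1 (0.951) and Ybx3 (0.942). Ccnd2, at 10.5 CPM or less in all 12 sums, was followed by Acbd6 (0.966), Ak1 (0.964) and Lyz2 (0.945).

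The 10 genes lie on 8 chromosomes of mm10, with Cdk4 and Cdk2 on chromosome 10 and Ccne1 and Ccnd1 on chromosome 7. In the GENCODE annotation Cdk6 spans 3341485 to 3531008 of chromosome 5 on the plus strand, and Rb1 spans 73183673 to 73325822 of chromosome 14 on the minus strand. Cdk4 overlaps Tspan31, Cdk2 overlaps Pmel, Ccne2 overlaps Ints8, Ccnd3 overlaps Bysl and Ccnd1 overlaps LTO1, each on the opposite strand. Also on the opposite strand, Rb1 overlaps Rcbtb2 and Lpar6, Ccnd2 overlaps Gm43126 and 9330179D12Rik, and Cdk6 overlaps Gm17590 and Gm42435. On its own strand Rb1 overlaps Gm17233 and Mir687, and Ccne1 and E2f1 overlap no annotated gene. The strand setting of the counting is not given in the sources used here, so reads of overlapping genes could have been shared.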

How the data were processed

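UMI counts per gene and cell barcode were deposited by the authors as 1 matrix per library, made with Cell Ranger 3.0.1 on mm10 per the labels. The cell filter followed the study: 1000 to 5000 genes, no more than 8% of UMIs mitochondrial. Predicted doublets were removed with Scrublet in scanpy 1.11.5, and libraries were integrated and clustered with Seurat 5.3.0 (resolution 0.1), which left 3279 to 5756 cells a library with median depths of 6675 to 10434 UMIs. Clusters named as another cell type by fixed markers were left out. The muscle fibre and erythrocyte lists were left out of that naming after the data were seen. By mean standardized marker level, the cluster led by Top2a scored 1.53 on the erythrocyte list. Its score on the myoblast or myocyte list that named it was 1.43. UMIs were summed per class and library. Class comparisons used edgeR 4.0.16 (quasi-likelihood, TMM, filterByExpr, library as a block), called at an adjusted p under 0.05, and the script was tested on simulated data. Disease comparisons have 1 library a strain, so no test was run. A floor of 3 counts stood for 0, and intervals cover counting error only. Named beside the 10 genes were, of a list of 28 other G1 regulators, those past 2-fold in both disease comparisons and the 5 largest called changes of each class comparison, and the 3 genes most alike each of the 10. Alternatives covered cell filters, gates, thinning with the gates applied after it, scaling, filters on genes, DESeq2 1.42.0 and each library left out. The genes and lists were chosen with earlier results of these data known.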

Additional observations from a re-analysis of the deposited data

Results flagged for a closer look

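Barcodes of any cell type with more than 5000 genes were left out of the main comparisons. In mdx or D2-mdx, 5 levels of the 10 genes in them were at least 10 CPM and at least 2-fold those of the paired control. The share of all genes past the same rule was not computed, so this count is no result about the 10. There were 41, 213, 128 and 498 such barcodes in B10, mdx, DBA and D2-mdx, and 26.8%, 63.8%, 29.7% and 79.1% of them held a UMI of Mki67 or Top2a. Cdk4 stood at 337 CPM in D2-mdx against 165 CPM in DBA. Cdk6 stood at 125 CPM in mdx against 25.2 CPM in B10. Ccne1 stood at 34.0 CPM in mdx against 14.4 CPM in B10, and at 44.0 CPM in D2-mdx against 13.7 CPM in DBA. E2f1 stood at 22.2 CPM in D2-mdx against 8.85 CPM in DBA. Cdk6 was also high in such barcodes of DBA, at 138 CPM beside 149 CPM in D2-mdx. These barcodes were not limited to myogenic clusters, so their levels cannot be set beside those of the classes. Ccnd2 stood at 50.4, 30.6, 88.5 and 22.5 CPM in those of B10, mdx, DBA and D2-mdx. The parts of doublets and of other cell types in these values were not tested.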

How the results depend on the processing

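Of the tests of single genes under alternatives, 453 stayed on their side of the threshold (32 of them, none past it, with the other sign), 13 lost significance, 10 gained it and 1 reversed: Ccne2 in Myog-positive against Pax7-positive cells was 1.71 where classes could overlap. In Myog-positive against dividing cells, 1 gene was higher with thinned cells, and 4 were lower with gates of 2 UMIs and 1 with overlapping classes, against 2 and 2 in the report. Leaving out each library in turn gave 1 to 2 higher and 1 to 3 lower genes there, 4 to 6 higher in dividing and 5 to 6 higher in Myog-positive against Pax7-positive cells, and 0 lower in both. Without the mdx library it was 1 higher (Rb1) and 1 lower (Ccne2). In Pax7-positive cells of mdx over B10, 2 genes were past 2-fold higher over all cell types and 3 with no CPM minimum, against 1, and 2 (Ccnd1, Cdk2) were lower at a fold of 1.5, against 0. In D2-mdx over DBA 1 was higher, against 2, with overlapping classes, with a mean of per-cell counts and at a 50 CPM minimum. The causes were not tested. Ratios between libraries stayed within their counting interval in 551 values and moved beyond it in 66.

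Over all genes, calls in dividing against Pax7-positive cells (1310 higher, 955 lower) ran from 435 and 78 to 2738 and 2637, with the fewest without the mdx library and the most with cells of 500 genes and more. Myog-positive against Pax7-positive cells had 1477 higher and 1534 lower genes, 467 and 328 without mdx, and 841 and 893 with thinned cells. Myog-positive against dividing cells had 515 and 701, 168 and 197 without mdx, and 946 and 1384 with gates of 2 UMIs. The library was the block in each test, and with 1 library a strain no other pairing exists. Depth limits the control Myog-positive cells most, with 414177 and 622366 UMIs in all.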
